A study of Mus musculus with 3 samples.

Results

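The values described here are those of 1 array, which held labelled material made from the RNA of 1 pool of 30 blastocysts of young ICR mice cultured without treatment. It was taken by its sample label and is 1 of the 3 arrays of the series. The young females were 3 to 6 weeks of age and were superovulated, and their zygotes grew for 96 h in KSOM, a culture medium for preimplantation embryos. The paper describes both mating and in vitro fertilization and does not say which gave the zygotes of the arrays. The other 2 arrays held pools of 30 blastocysts from ICR females of 43 to 53 weeks of age. Of these, 1 pool was untreated, and for the other, called suppressed aging, the medium held 10 μg/ml of a neutralizing antibody against CXCL5 and 10 nM of a CXCR2 antagonist. ICR is an outbred stock, and the stock, the superovulation, the medium and the culture time were shared by all groups. The 2 aging arrays served only to see whether the order of signals on the young array was also found there. With 1 array per condition, no value has an error between embryos and no test was possible. A pool gives 1 level for all cells of all its embryos, so fewer cells of a type and less RNA per cell cannot be told apart.

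The blastocyst is the last stage before implantation. Its outer cells form the trophectoderm, an epithelium that pumps fluid into the cavity and later makes the placenta, and the inner cell mass splits into epiblast, which gives rise to the fetus, and primitive endoderm, which lines the yolk sac. The transcription factors Cdx2, Nanog and Gata6 mark these lineages, Pou5f1 (Oct4) marks pluripotent cells, and keratins 8 and 18 are the first intermediate filaments of the embryo's epithelium.

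The array read 1 dye (Cy3) over 59305 spots of 56605 probes besides the controls. The authors' scanner software gave each spot a linear, background-subtracted intensity and marked it as well above background or not. A probe so marked is called detected here. Of 56602 probes with a value, 33069 (58.4%) were detected. Of 23460 genes named through the array's accessions, 15267 (65.1%) had at least 1 detected probe, and this share is the background for the counts that follow. The number of probes bears on it, since 55.2% of the 15403 genes with 1 probe were detected against 84.0% of the 8057 genes with 2 or more. Protein-coding genes were detected in 14058 of 20099 cases (69.9%) and long noncoding RNA genes in 1010 of 3035 (33.3%).

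Detected intensities ran from 7.89 to 209826, a 26581-fold span, with a median of 99.3, and no spot was saturated. Probes that were not detected had a median of 2.00 and reached 10.4, and 308 negative control spots had a median of 1.85 with none of them detected. A percentile of 90 stood for an intensity of 844 and a percentile of 99 for 18376. A small number of probes held most of the light. The brightest 100 probes carried 24.2% of the summed intensity, and 430 probes (0.760%) carried 50% of it. Ranks and percentiles below are of probe signal among all probes with a value. They depend on the probe's sequence and its place in the transcript as well as on the transcript's amount, so they do not order genes by number of transcripts.

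**Figure D1:**
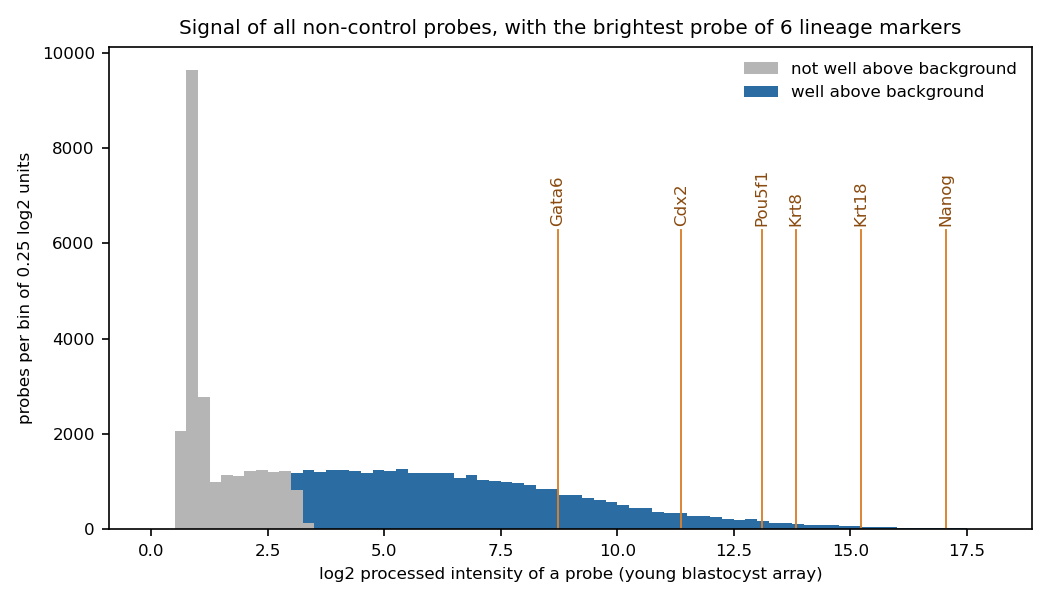
The number of probes (vertical axis) in bins of 0.25 log2 units of processed intensity (horizontal axis) on the young blastocyst array, split into probes well above background (blue) and not (grey), with orange lines at the brightest probe of 6 lineage markers. The grey peak lies near the median of 2.00 of undetected probes, and all 6 markers lie in the blue range, from Gata6 at 423 to Nanog at 136490.

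All 6 markers of the blastocyst were detected, against 65.1% of all named genes, and none went against the label of a blastocyst. Krt18 had an intensity of 38448 (percentile 99.6) and Krt8, its partner in the filament, 14685 (98.8). Pou5f1 stood at 8831 (98.1) and Cdx2 at 2661 (95.1), each read by 1 probe. Gata6 was the dimmest at 423 (85.2). Nanog had the brightest probe of the group at 136490 (99.9), but its other probe, designed on the same transcript, read 215 (79.1). The place of Nanog at the head of the lineage genes therefore rests on 1 of its 2 probes, whereas both probes were detected.

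Of 20 trophectoderm genes, 19 were detected and 13 lay in the brightest 10% of probes. A gene is placed by its brightest probe, so more than 10% of named genes lie there, here and in later counts. Of 23460 named genes, the one of rank 3215 still lay in it and the one of rank 3344 did not. The median percentile of the trophectoderm genes was 94.8, against 58.9 over all named genes. Besides the keratins, the brightest were Gm2a, a lysosomal lipid-binding protein, at 24785 and Dppa1 at 20114. Cldn4, a tight junction claudin, read 9427. Of the transcription factors of the lineage, Tfap2c read 7720, Gata3 7379, Gata2 2769, Tead4 1278 and Eomes 760. Elf5 (98.7) and Ascl2 (23.4), which are known from trophoblast stem cells and the later placenta, were dim but detected. Hand1, a factor of trophoblast giant cells, was the member that was not detected, at 3.87.

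All 20 genes of the epiblast and inner cell mass were detected, with a median percentile of 88.5. Dppa5a, an RNA-binding protein of pluripotent cells, read 107769, the next brightest after Nanog. A group of factors of the naive state followed, with Tfcp2l1 at 7849, Klf5 at 7630, Zfp42 (Rex1) at 4218 and Klf4 at 1079. Sox2, the partner of Oct4 on DNA, read 291 and Esrrb 305. The signalling genes were dimmer. Bmp4 read 635, the FGF ligand Fgf4 read 116 and Nodal 31.4, the lowest of the list. Tdgf1, a coreceptor of Nodal, was read by 5 probes at 2991, 2153, 564, 75.3 and 40.7, all detected.

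Of 16 primitive endoderm genes, 15 were detected, with a median percentile of 81.9. The brightest was Dab2, an endocytic adaptor, whose 3 probes read 6383, 2640 and 962. Gata4 followed with 1427 and 836. The basement membrane chains Lamb1, Lama1, Col4a2 and Col4a1 read 978, 549, 564 and 299. Sox17 read 272, Foxa2 281, Pdgfra 180 and Sox7 55.2. For Pdgfra, the receptor that marks this lineage, the other 2 probes were at 8.51 and 2.12 and were not detected. Ttr (transthyretin), a product of visceral endoderm, was not detected by either of its probes. Across the 3 lists, the summed intensity was 142381 for trophectoderm, 281621 for epiblast and inner cell mass and 12524 for primitive endoderm. Without the brightest gene of each, the sums were 103933, 145131 and 6141. Of the 145131 left for epiblast and inner cell mass, Dppa5a, read by 1 probe, added 107769. The sums therefore do not order the lineages.

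**Figure D2:**
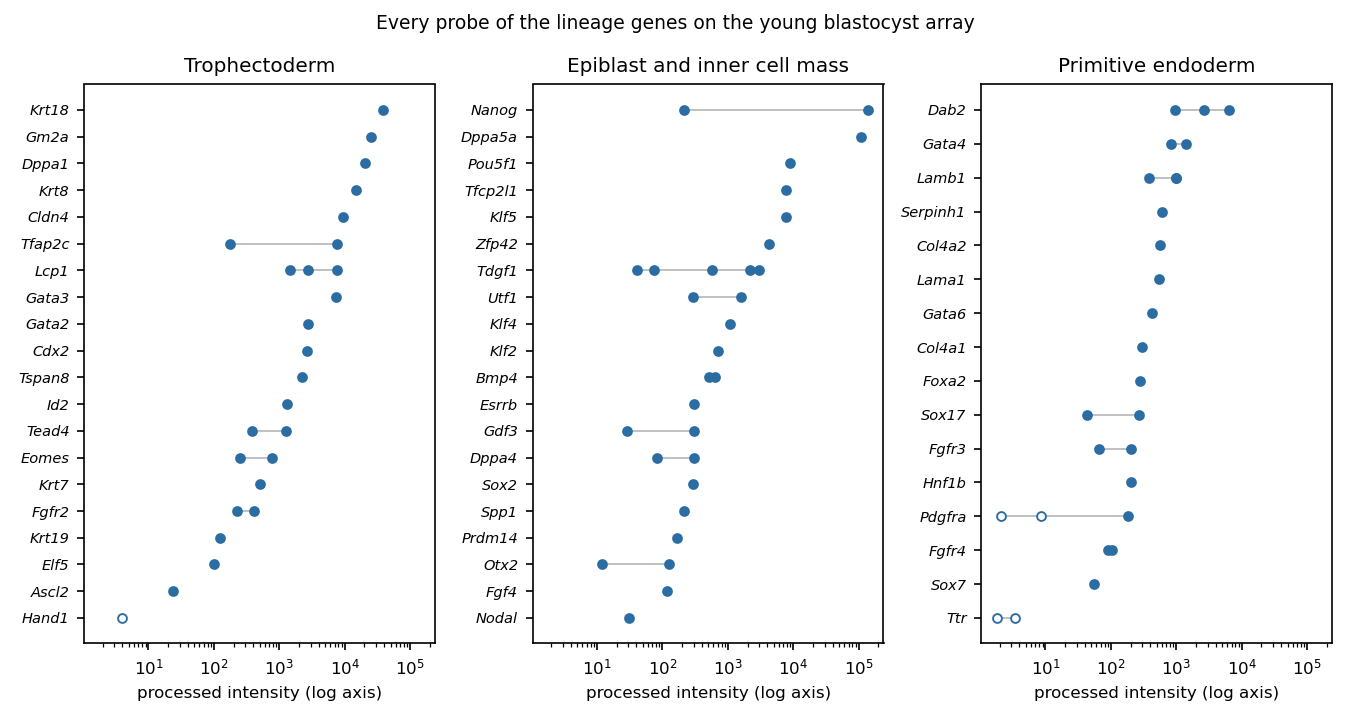
Every probe of the lineage genes on the young blastocyst array, with processed intensity on a log axis and 1 gene per row, ordered by the brightest probe. Filled points were well above background and open points were not, and a line joins the probes of 1 gene. Hand1 and Ttr have open points only, and Nanog spans from 215 to 136490.

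Blastocoel formation needs water channels, sodium pumps and sealed junctions, and 19 of 20 genes of these groups were detected, 14 of them in the brightest 10%. The aquaporin Aqp3 read 11556, Aqp9 775 and Aqp8 466. The sodium pump subunits Atp1b3 and Atp1b1 read 5190 and 1105. Among junction proteins, Epcam read 8671, Cldn6 6851, Cldn7 5465 and Tjp1 1303. Cdh1 (E-cadherin), which holds the embryo's cells together, was the dimmest detected member at 269. Slc9a3, a sodium-proton exchanger, was not detected at 6.31.

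Housekeeping genes were all detected (20 of 20), with a median percentile of 96.6. They did not form 1 level. Ppia (cyclophilin A) read 51531, Actb 25962, Eef1a1 25370 and Gapdh 22284. At the lower end, Gusb read 397 and Tbp, the TATA-binding protein, 225. Gapdh had 6 probes on the same transcript, which read 22284, 19933, 15687, 11902, 5774 and 4207. Their percentiles ran from 96.5 to 99.2. Ldha was less even, with 848 and 36.8.

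Genes of energy metabolism were detected in 24 of 24 cases, 20 of them in the brightest 10%. The glycolytic enzymes Aldoa (57256), Pgam1 (9284), Pkm (6622), Gpi1 (3652) and Tpi1 (2676) were bright. Of the glucose transporters, Slc2a3 read 6898, Slc2a1 1758 and Slc2a8 52.3. Hexokinase 2 (Hk2) read 2889. Of 24 cell cycle genes 23 were detected, led by Birc5 (survivin) at 24697, the replication helicase subunits Mcm4 at 11074 and Mcm6 at 10771, and Aurka at 5435. The cyclins differed. Ccna2 read 1677, Ccnb1 1482 and Ccnd3 1298, whereas Ccnd1 read 28.0 and Ccnd2 was not detected.

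Of 14 genes that write, read or remove DNA methylation, all were detected. The de novo methyltransferase Dnmt3b read 6724 and its cofactor Dnmt3l 4932, above Dnmt3a at 807. The maintenance enzyme Dnmt1 read 171, while its recruiting factor Uhrf1 read 6447. Among the dioxygenases that oxidize methylcytosine, Tet2 read 6598, Tet1 785 and Tet3 157. For Dnmt3b, the probes designed on 1 transcript read 6724 and 4271, and the probe designed on another transcript read 24.5. That dimmest probe was below the probe of Dnmt1, a gene read by 1 probe.

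Transcripts known from the oocyte were mostly dim. Of 22 such genes 11 were detected, and 3 lay in the brightest 10%. These were Dppa3 (Stella), with probes at 25876 and 10675, Khdc3 at 10026 and the oocyte linker histone H1f8 at 2338. The zona pellucida genes Zp3 and Zp2 read 17.5 and 14.8, Gdf9 36.5 and Nlrp5 (Mater) 24.9, and Zp1, Figla, Nobox, Mos and Bmp15 were not detected. Of 17 genes of the 2-cell stage on the array, 10 were detected. Sp110 stood out at 195999, but its other probes read 648 and 511. Eif1a read 2995 and Pramel11 591. Zscan4c and Zscan4f, which mark the major genome activation, were not detected. By the software's more lenient flag, for positive and significant signal, 18 of the 22 oocyte genes passed.

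Of 24 genes linked to implantation 20 were detected, 15 of them above 48.9, which is the intensity that 95% of the olfactory receptor genes did not exceed. Of all 23460 named genes, 10976 (46.8%) exceeded it. Itgb1 (2278), Fn1 (1457) and Itga5 (1260.5), which form the fibronectin receptor and its ligand, led. Hbegf, a ligand of the EGF family, read 174, and Areg and Ereg of the same family were not detected. Of the EGF receptor family, Erbb3 read 705, Egfr 58.0, and Erbb4 was not detected. Lifr and Il6st, the receptor pair for LIF, read 204 and 172. Of 16 genes of growth factor signalling, 13 were detected, with Igf2r at 6040 and Igf2 at 448, whereas Igf1r read 49.3 and Insr 106.

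The study concerns the chemokine CXCL5 and its receptor CXCR2, so their level at baseline was read. Cxcl5 was detected at 11.1 (percentile 43.9), below the 48.9 that 95% of the olfactory receptors did not exceed. Cxcr2 (2.06) and Cxcr1, each read by 1 probe, were not detected. The Cxcr2 probe lay at percentile 23.6 in young, 3.04 in aging and 49.8 in suppressed aging blastocysts. The paper measured Cxcl5 and Cxcr2 transcripts in mouse oocytes and blastocysts by RT-PCR. A probe not detected here does not show that the transcript was absent. The decoy receptor Ackr1 read 189, and its other probe 4.76, which was not detected. Of 20 factors of the senescence-associated secretory phenotype, 12 were detected (60.0%) and 5 exceeded 48.9, against 46.8% of all named genes. Among these were Igfbp3 (313), Mmp12 (156), Vegfa (108) and Ccl5 (73.8). Il1a, Cxcl1, Cxcl3, Mmp3 and Tgfb1 were not detected. Of the aging markers, Trp53 (p53) read 1171 and Cdkn1a (p21) 564, whereas Cdkn2a (p16) read 36.2 and Il6 24.5. The other probes of Cdkn2a (1.63) and Il6 (4.46) were not detected.

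Gene families differed widely in how often their members were detected. Of 84 cytosolic ribosomal protein genes 83 were detected, with a median percentile of 99.1, and 73 of them were among the 1000 brightest genes. The 1 not detected was Rpl3l (1.91), a paralog known from muscle. The brightest were Rpl41 (123953 and 83676), Rps29 (79916 and, by its second-brightest probe, 17999) and Rps16 (78123 and 35693). Of 78 mitochondrial ribosomal proteins 77 were detected, of 47 proteasome subunits 46 and of 79 respiratory chain and ATP synthase subunits 76, with median percentiles of 93.5, 96.4 and 97.1. The undetected proteasome gene was Psmb11, the subunit of thymic epithelium. All 9 chaperonin subunits, all 47 translation initiation factors and all 11 peroxiredoxins and thioredoxins were detected. Hspa8 led the heat shock proteins, with 4 probes at 111402, 38519, 29362 and 21905. Of the glutathione S-transferases, 19 of 22 were detected.

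**Figure D3:**
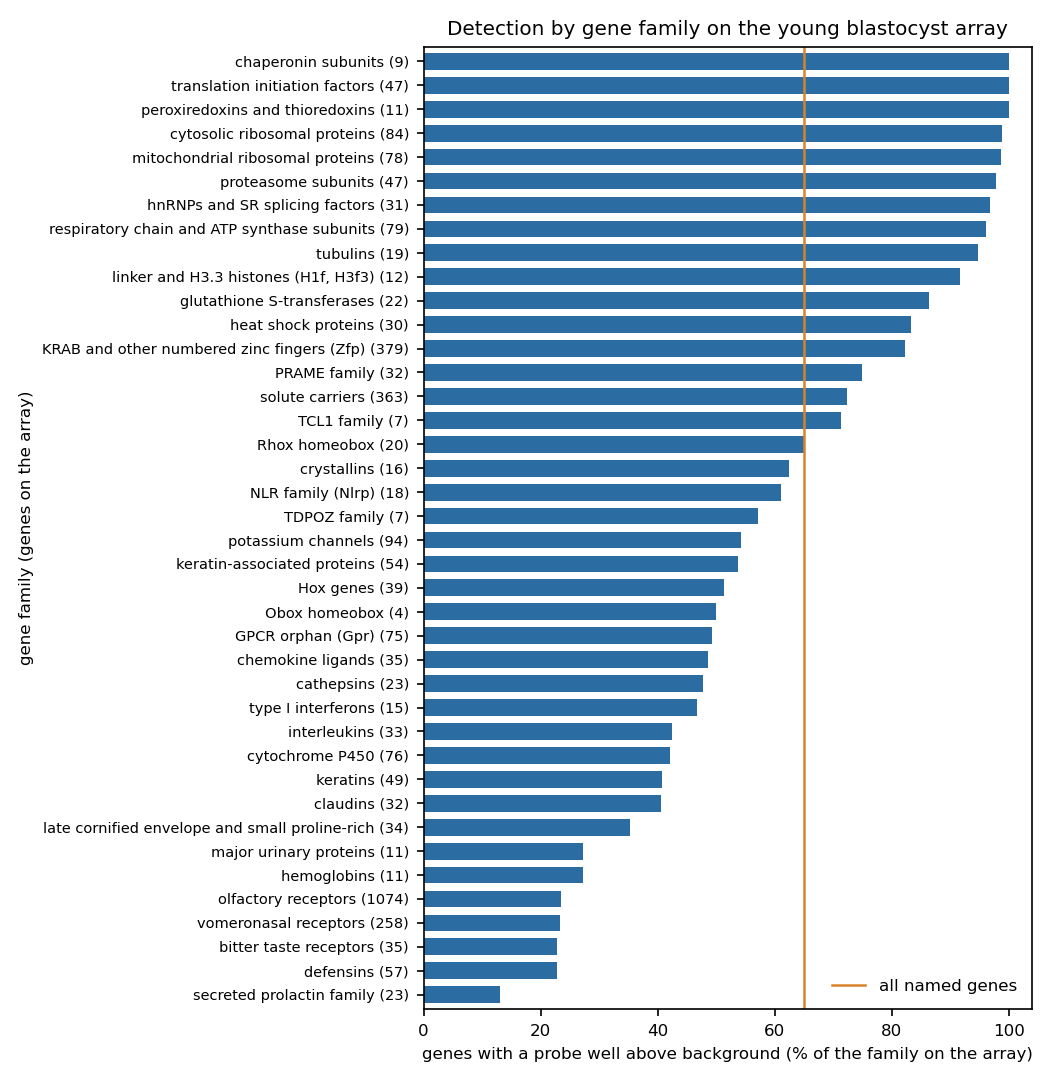
The percent of genes with a probe well above background (horizontal axis) in 40 gene families (vertical axis, with the number of genes on the array in parentheses) on the young blastocyst array. The orange line is the 65.1% of all named genes. Bars run from 100% for chaperonin subunits to 13.0% for the secreted prolactin family.

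Among the families least often detected were receptors of the senses, defensins, hemoglobins, the major urinary proteins, which carry pheromones, and the prolactins. Of 1074 olfactory receptor genes 252 were detected (23.5%), and the median over the detected ones was 22.3. Nearly all had 1 probe, and of these 1049 genes 22.8% were detected, against 55.2% of all genes with 1 probe. Vomeronasal receptors (60 of 258), bitter taste receptors (8 of 35) and defensins (13 of 57) were at like shares. The hemoglobins and the major urinary proteins were each detected in 3 of 11 cases (27.3%), the former led by Hba-a1 at 113. The prolactin family, made by the later placenta, was detected in 3 of 23, with Prl2c1 at 88.5 and Prl5a1 at 65.3. Of 39 Hox genes 20 were detected, none in the brightest 10% and with Hoxd9 the brightest at 400. The shares of these dim families depended on the call of detection. By the more lenient flag, 586 olfactory and 134 vomeronasal receptors and 32 defensins passed, as did 19111 of all named genes. A few members stood far above their own family. The olfactory receptors Olfr744 and Olfr571 read 1380 and 1361 and lay above percentile 90 on all 3 arrays. Mixed families behaved likewise. Of 49 keratins 20 were detected, and Krt222 (46976), Krt18 and Krt8 were the 3 in the brightest 10%. Of 32 claudins 13 were detected, and the 3 in the brightest 10% were Cldn4, Cldn6 and Cldn7. Of 20 Rhox homeobox genes 13 were detected, with Rhox5 alone in the brightest 10% at 7063 and 3992.

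Upstream sequence was set beside the signal of genes and families. RefSeq promoters (GRCm38.p6) were matched by gene symbol for 16095 of 20099 protein-coding genes on the array (80.1%), and CG dinucleotides were counted in the 250 bases before the start. The median was 14 over the detected genes and 11 over all protein-coding genes. In the brightest 25% of detected genes it was 17, and in the mitochondrial ribosomal proteins also 17. Olfactory and vomeronasal receptors had a median of 1. Not every bright group had many, since the median was 10.8 over the trophectoderm list and 7 over the 5 of 6 markers with a promoter, against 17.5 over the housekeeping list. The letters TATAAA, sought on both strands, were found in 9.85% of detected genes' promoters, 39.0% of those of olfactory receptors and 12.4% of all 32851 promoters in the table. They were found in 18.8% of the 16 promoters of housekeeping genes and in none of the 16 of the trophectoderm list. Both of these sets are small. Fewer than 80% of the undetected genes, of the cytosolic ribosomal proteins and of the epiblast and primitive endoderm lists had a promoter in the table, so no value is given for them. To show the range, 4 promoters follow, 5′ to 3′ and with each CG in capitals. Ppia, the brightest housekeeping gene, has 38 CG in chr11:6415617-6415866 on the plus strand. Krt18, with 12 in chr15:102027966-102028215 on the plus strand, and Krt8, with 3 in chr15:102004343-102004592 on the minus strand, are the keratin pair of the trophectoderm. Olfr525, the olfactory receptor with the lowest signal (1.57) among those with 1 promoter in the table, has 1 in chr7:140322451-140322700 on the plus strand.
Ppia: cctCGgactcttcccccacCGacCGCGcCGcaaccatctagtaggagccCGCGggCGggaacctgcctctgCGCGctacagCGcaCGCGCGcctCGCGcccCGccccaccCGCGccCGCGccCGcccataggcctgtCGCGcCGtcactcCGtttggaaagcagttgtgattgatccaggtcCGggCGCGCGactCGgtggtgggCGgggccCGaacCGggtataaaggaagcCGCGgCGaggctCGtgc
Krt18: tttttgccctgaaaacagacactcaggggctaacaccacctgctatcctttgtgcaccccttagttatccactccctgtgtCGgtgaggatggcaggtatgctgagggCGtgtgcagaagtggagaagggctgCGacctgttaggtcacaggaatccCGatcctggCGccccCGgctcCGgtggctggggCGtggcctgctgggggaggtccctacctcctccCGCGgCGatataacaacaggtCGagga
Krt8: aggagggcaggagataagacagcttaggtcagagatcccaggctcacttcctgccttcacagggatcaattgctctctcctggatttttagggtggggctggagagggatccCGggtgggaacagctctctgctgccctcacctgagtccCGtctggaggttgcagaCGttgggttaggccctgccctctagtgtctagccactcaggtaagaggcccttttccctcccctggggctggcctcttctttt
Olfr525: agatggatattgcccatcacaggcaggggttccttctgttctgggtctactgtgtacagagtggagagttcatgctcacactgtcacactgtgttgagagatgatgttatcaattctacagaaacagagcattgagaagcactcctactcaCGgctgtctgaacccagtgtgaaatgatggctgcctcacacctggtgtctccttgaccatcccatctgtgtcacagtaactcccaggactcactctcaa
Among these genes, picked to show the range, the count fell in the same order as the signal. The bright Krt8, at 14685, still had few CG, as did the receptor that was not detected.

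Markers of other cells that could have come along with the zygotes were read as lists. Of 16 cumulus and granulosa genes 5 were detected (31.3%). The summed intensity was 58846, to which Foxl2, a transcription factor of granulosa cells read by 1 probe, added 58645, and without it the sum was 201. The gonadotropin receptor genes Fshr and Lhcgr, Has2 and Ptx3 of the cumulus matrix, and Inha were not detected. Of 13 blood and macrophage genes 7 were detected. Itgam (CD11b) read 34961 by 1 probe and 9.72 by the other, and Csf1r, which trophoblast is also known to express, read 2651 and 16.3. Cd68, a lysosomal protein of macrophages, read 711 and 634 by its 2 probes, and Cd3e, of the T cell receptor complex, 63.3 and 15.8, all detected. Ptprc (CD45), the common leukocyte antigen, read 1.72 and 1.70, and it was not detected, nor were Adgre1 and Lyz2. Above 48.9 were 5 of the 13, against 46.8% of all named genes. Of 10 oviduct genes 3 were detected, with Wfdc2 at 483, and the oviductal glycoprotein Ovgp1 was not. Of 10 sperm genes 4 were detected, all protamine or transition protein genes and all at or below 170. By the more lenient flag the counts were 8 for cumulus and granulosa, 12 for blood and macrophage, 6 for oviduct and 9 for sperm. The part of such cells in the other values was not tested.

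Lists of organs that the embryo has not yet formed were read in the same way. Of 12 liver genes 7 were detected, at most at 205 (Tat), and Alb was not. Of 14 neuronal genes 6 were detected. Snap25 read 15376 by 1 probe and 1.61 by the other, which was not detected, and the next was Tubb3 at 214. Of 16 muscle genes 10 were detected, led by Myod1 at 393. These shares of 58.3%, 42.9% and 62.5% lay below the 65.1% of all named genes, yet they show that detection alone did not separate embryonic from other genes. Above 48.9, the level that 95% of the olfactory receptors did not exceed, were 3 of 12 liver, 3 of 14 neuronal and 4 of 16 muscle genes, against 18 of 20 trophectoderm, 19 of 20 epiblast and 15 of 16 primitive endoderm genes. Of all named genes, 46.8% were above that level. Of the sex-linked genes, Xist, which is made by female cells from the inactive X chromosome, read 5338. The Y-linked Eif2s3y read 533 and 292, and the Y-linked Ddx3y 43.5, detected but below 48.9. Probes for genes of both kinds thus gave signal. Whether the X-linked counterpart Eif2s3x, at 11591, added to the signal of Eif2s3y was not tested.

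The 25 genes with the brightest probes were not the families above. In order they were Pak4, Sgsh, Sp110, AY036118, Ubtf, Hemgn, Arl6ip6, Zcchc9, Eya1, Skint7, Tmem239, Sema4c, Plekhg3, Pdp2, Ulk3, Nrp2, Spag7, Exosc2, Ms4a4c, Ung, Timmdc1, Ephb3, Itsn1, Ldlrad3 and Fam219a, from 209826 to 141784. Most of those with a further probe were dim by it. Hemgn, known from blood cell precursors, read 173556 by 1 probe and 1.75 by the other, which was not detected. Sgsh, a lysosomal sulfatase, read 196005 and 68.5. Skint7, known from skin and thymus, read 166001, and its other probes, at 8.79 and 1.99, were not detected. Itsn1 had 10 probes, which fell from 145513 through 3719 and 1031 down to 1.76. AY036118, at 189260 and 62106, was the exception, with both probes above percentile 99.

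**Figure D4:**
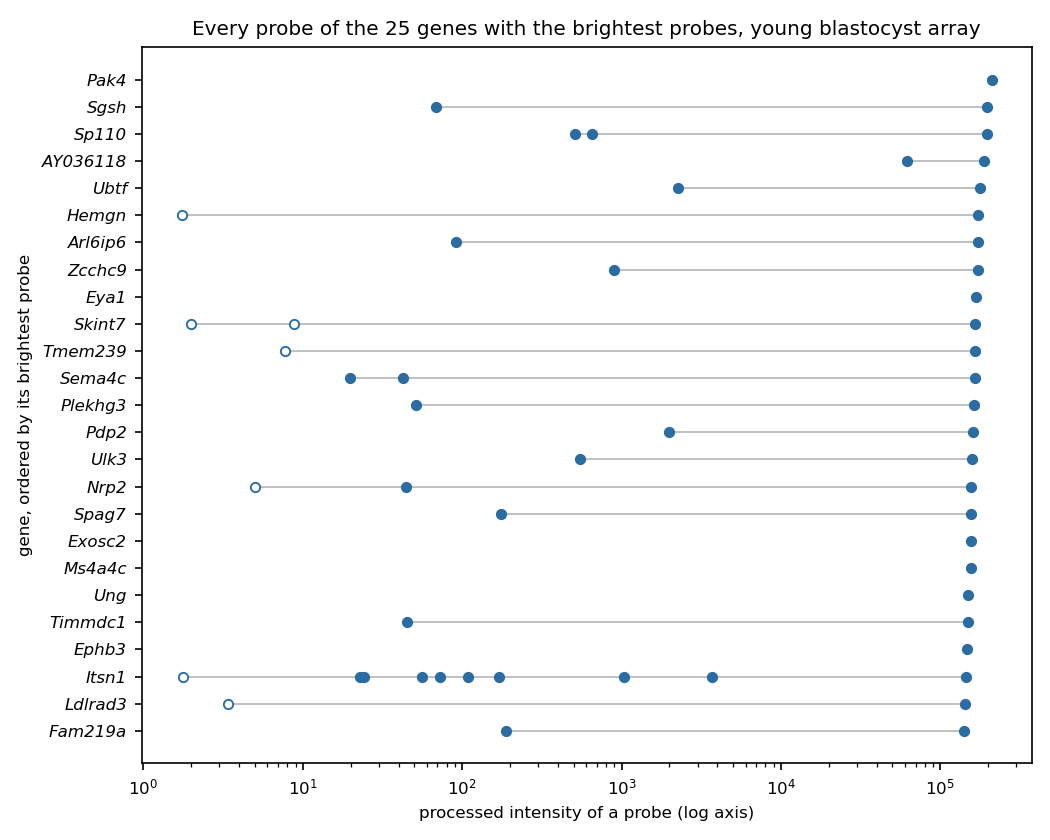
Every probe of the 25 genes with the brightest probes on the young blastocyst array, with processed intensity on a log axis and 1 gene per row. Filled points were well above background and open points were not. The brightest probes sit together from 141784 to 209826, while further probes of the same genes lie as low as 1.75, and the brightest further probe is that of AY036118 at 62106.

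Among the 100 genes with the brightest probes, 70 had 2 or more probes. The second-brightest probe was over 32-fold dimmer in 57 of them and within 2-fold in 3, and in 18 it was not detected. The other 30 genes had 1 probe and could not be compared. Picking genes by their brightest probe widens this gap in advance. The values for genes in general, which follow, are therefore not a like measure. For 8057 genes, 2 probes were taken by their identifiers and not by signal. Both were detected for 4948 genes, with a median difference of 1.52 on the log2 scale (2.86-fold), 34.3% within 2-fold and 258 (5.21%) over 32-fold apart. For 1720 genes (21.3%) 1 of the 2 probes was detected. Spearman's rho between the 2 probes was 0.637 over all pairs and 0.475 where both were detected, across genes, which are not independent replicates. Spots of the same probe differed far less, with a median SD of 0.05 on the log2 scale over 290 probes with 5 or more spots. Among genes with 2 or more detected probes, the widest gaps were those of Ccdc138 (115536 and 12.4), 2610028H24Rik (105300 and 12.8), Hexim2 (67104 and 11.1), Ly96 (84369 and 16.7) and Mtfr2 (126281 and 28.7).

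Ordering genes by their second-brightest probe, a choice made after seeing these values, gave another head of the list, with Rpl41, Ubb, AY036118, Vash1, Gm33272, Fabp3, Hspa8, Rps16 and Rps28 among those in front. Ubb, a polyubiquitin gene, read 137243 and 82504, and Fabp3, a fatty acid carrier, 43802 and 39352. Cytosolic ribosomal proteins then made up 36 of the 100 brightest genes, out of 47 with 2 or more probes, against 7 of 84 by the brightest probe. With 1 value per gene as the median over its probes, they made up 26. The 100 brightest genes by the second probe shared 10 with the 100 by the brightest probe. Of 1749 genes with 2 or more probes whose brightest lay in the brightest 10%, 458 had all their probes there, Gapdh and Hspa8 among them.

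The order of signals was then sought on the other arrays, which carry the same probes, so a probe's own brightness is shared by all. Over 56599 probes Spearman's rho between the young and the aging array was 0.928, and over 56594 probes it was 0.924 between the young and the suppressed aging array. A probe detected in young blastocysts moved by a median of 2.84 percentile points in the aging and 2.57 in the suppressed aging blastocysts. Of the detected probes of young blastocysts, 30455 (92.1%) were detected in the aging and 29765 in the suppressed aging blastocysts. The 100 brightest genes shared 94 members with the aging and 95 with the suppressed aging array, and the 25 named above all lay above percentile 99.9 on both. The bright probes that other probes of the same gene did not match therefore recurred on every array, Hemgn among them.

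The lineage lists held their places. The median percentile of trophectoderm was 94.8 in young, 93.0 in aging and 94.3 in suppressed aging blastocysts, that of epiblast and inner cell mass 88.5, 91.0 and 89.9, and that of primitive endoderm 81.9, 81.9 and 81.1. Gata6 was at percentile 85.2 in young, 90.03 in aging and 86.2 in suppressed aging blastocysts. Single genes moved more, bright ones included. Hand1 was at percentile 30.9 in young, 64.4 in aging and 28.7 in suppressed aging blastocysts, Ascl2 at 53.2, 60.7 and 90.8, and Itga5 at 92.2, 59.7 and 63.0. Cytosolic ribosomal proteins had a median percentile of 99.1, 99.2 and 99.1, and olfactory receptors were detected in 23.5%, 22.8% and 20.2% of cases.

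**Figure D5:**
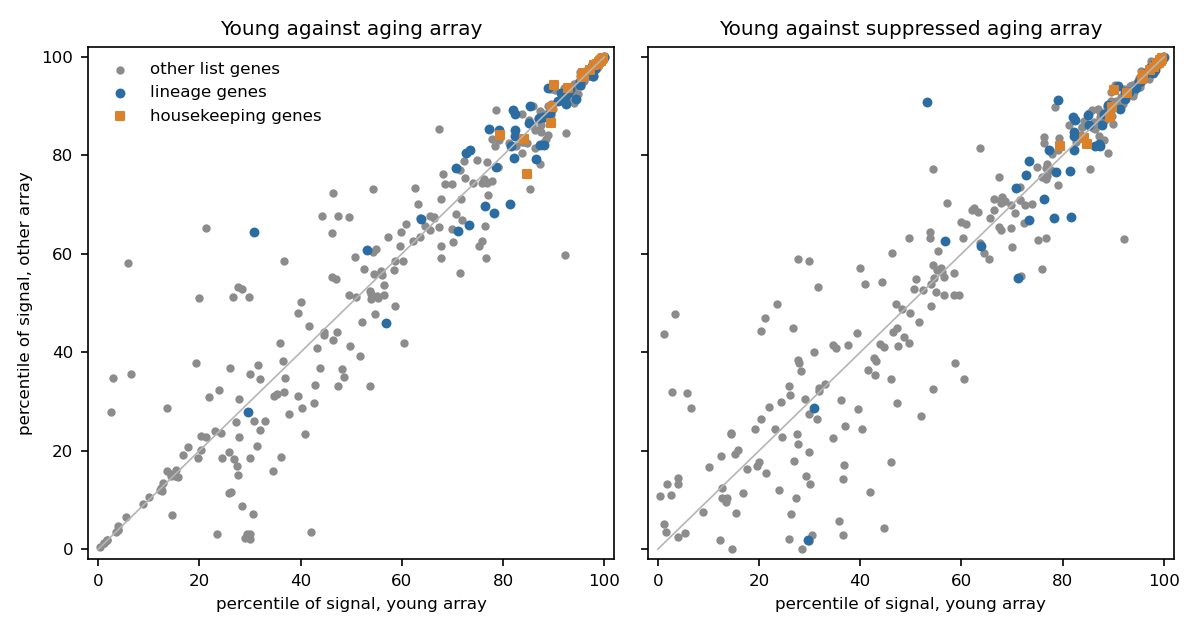
Percentile of signal on the young array (horizontal axis) against that on the aging array (left) and the suppressed aging array (right), with 1 point per gene of the gene lists. Lineage genes are blue, housekeeping genes are orange squares, other genes are grey, and the line marks equal percentiles. Points above percentile 90 lie near the line, with Itga5 the farthest from it at 59.7 and 63.0, while genes below percentile 60 spread widely.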

How the data were processed

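Labelled material made from the RNA of pools of 30 blastocysts was hybridized by the authors to Agilent mouse gene expression arrays. The labels name a cRNA labelling kit and the paper's methods a single-primer PCR amplification, and the files do not tell which of them made these samples. The deposited spot intensity is linear, background-subtracted and detrended by Agilent Feature Extraction 12.0.3.1 (version per the submitters' processing notes), with no normalization between arrays. The authors' processed value table, which is also a deposited intensity, was used as an alternative.

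Control spots and 100 outlier spots were left out, log2 intensities of a probe's spots were averaged, and intensities are given back on the linear scale. A probe was detected where at least 50% of its spots were well above background. Accessions were named through RefSeq genes of GRCm38.p6, an annotation of another build than the array's, for 33765 of 56602 probes. A gene took its brightest probe. The 24 gene lists and 40 families (by symbol pattern, protein-coding genes) and the array were chosen with earlier results of these data known, and the patterns of the hemoglobins and histones were corrected after seeing which symbols they matched. Genes named are the 25 brightest, the 6 markers, members of the lists and families, and the 5 widest probe gaps. Alternatives were other detection calls, probe sets, list lengths and values per gene, kept outliers, and normexp (limma 3.58.1, offset 50). The steps for probe values, ranks, detection and the brightest probe of a gene were run on a copy of the young array with values and flags altered by hand. This checks the code for these steps only. Python 3.11.15, pandas 2.3.3, SciPy 1.17.1, Matplotlib 3.10.9 and R 4.3.3 were used. The number of arrays limits the precision, and no test between conditions was made. Not every gene that meets the rule is named, and some results are not reported here.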

Additional observations from a re-analysis of the deposited data

Results flagged for a closer look

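Signal was found in control probes that none of the comparisons uses. The brightest of 10 probes for adenoviral E1A, a spike-in control, had a median intensity of 411.6 over 35 spots, and 2 of the 10 probes had all spots well above background. The same probe read 389 and 362 with aging and suppressed aging blastocysts. The brightest of 96 ERCC spike-in probes had a median of 111, and 7 of the 96 had all spots well above background, whereas none of the 308 negative control spots did. It read 101 and 80.3 with the same blastocysts. Whether spike-in RNA was added is not given in the sources used here, and the source of these signals was not tested.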

How the results depend on the processing

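No paired analysis was possible because only 1 array was made per condition, and no replicate could be left out. The 100 brightest genes depended on the value per gene: 37 of them stayed with the median over the probes of a gene, and 10 with the second-brightest probe, which was chosen after seeing the data. With 50 or 200 brightest genes in place of 100, 49 or 186 were shared with the aging array and 48 or 188 with the suppressed aging array. Counting probes designed on a RefSeq mRNA only gave 20416 detected probes. Olfactory receptors were detected in 586 cases by the software's positive-and-significant flag and 402 cases above the 99th percentile of negative controls, so their share depends on the call. Spearman's rho with the aging array was 0.953 by the authors' processed values and 0.948 with the median over the probes of a gene. With the suppressed aging array it was 0.953 and 0.945 by these, and 0.908 after normexp correction. The causes of these shifts were not tested. By the same flag 19111 of all named genes were detected, and the counts of 6 lists, all of other cell types or of the oocyte, and of 13 families, olfactory receptors included, rose by over 1.5 times. The 3 lineage lists, the markers and the ribosomal proteins changed by 1 gene or none under either call. Over normexp, the authors' values and the median over probes, the median percentile ran from 93.4 to 94.8 for trophectoderm, 84.8 to 88.4 for epiblast and inner cell mass and 75.2 to 82.4 for primitive endoderm. Low signals limit the order of genes: below an intensity of about 10, probes are not told apart from background.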
